A study of Arabidopsis thaliana with 8 samples.

Results

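The 10 genes described here take free auxin out of use in Arabidopsis. They are the 8 GRETCHEN HAGEN3 genes *GH3.1* (AT2G14960), *GH3.2* (AT4G37390), *GH3.3* (AT2G23170), *GH3.4* (AT1G59500), *GH3.5* (AT4G27260), *GH3.6* (AT5G54510), *GH3.9* (AT2G47750) and *GH3.17* (AT1G28130), and the 2 DIOXYGENASE FOR AUXIN OXIDATION genes *DAO1* (AT1G14130) and *DAO2* (AT1G14120). They were taken by locus as the named GH3 and DAO genes, with no threshold on their values though with earlier results of these data known, and make up 10 of the 37573 rows of the count table. In 9 of them the counts sufficed for a test, out of 21289 genes tested.

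Auxin (indole-3-acetic acid, IAA) is kept in balance by synthesis, transport and inactivation. GH3 enzymes join IAA to amino acids, and hydrolases can free IAA again from some of these conjugates. DAO enzymes are dioxygenases that oxidise IAA or its conjugates irreversibly. Several *GH3* genes are textbook early auxin response genes, so that auxin raises the transcripts of enzymes that remove it. In the hypocotyl, auxin signalling belongs to the programme of the cambium, the stem cell layer that forms wood and bast.

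The RNA came from hypocotyls, the organ between root and shoot, of 4-week-old plants carrying the transgene SMXL7pro:SMXL7d53-GR in a background labelled WT. Its product is a form of the transcriptional regulator SMXL7 that resists breakdown upon strigolactone (SL) signalling, joined to a glucocorticoid receptor (GR) that depends on dexamethasone (DEX), and it is made wherever the *SMXL7* promoter is active. Plants were watered with 15 µM DEX (4 libraries) or with as much of the solvent DMSO (mock, 4 libraries) and harvested after 5 h. All 8 libraries carry the transgene, so that effects of DEX itself and of the activated fusion cannot be told apart here, and nothing in the labels says whether replicates are separate plants or pools, so that p-values measure the spread between these libraries.

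Between 47976811 and 63996960 reads were counted per DEX library and between 49220724 and 85953231 per mock library, and mock replicates 1 and 3 were the deepest. Reads of *SMXL7* (AT2G29970), from the endogenous gene and the transgene together, averaged 24703 ± 257 normalised counts in DEX and 33487 ± 1913 in mock (SD, n = 4), which does not test the fusion, since DEX acts on its protein. Of 12 markers of hypocotyl vascular and periderm tissue, all were detected. A normalised count is a raw count scaled to the mean library size after TMM correction, and in bulk tissue fewer cells of a type and less RNA per cell cannot be told apart.

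The genes lie on 4 chromosomes (coordinates from RefSeq's TAIR10.1 annotation). *GH3.1* is at chr2:6451319-6453797, *GH3.3* at chr2:9863855-9866562 and *GH3.9* at chr2:19560127-19563960, all on the minus strand. *GH3.2* is at chr4:17579618-17582022 and *GH3.5* at chr4:13653579-13656285, both on the plus strand, and *GH3.6* is at chr5:22130964-22133688 on the minus strand. *GH3.4* is at chr1:21854493-21856614 on the minus strand and *GH3.17* at chr1:9825169-9828118 on the plus strand. *DAO2* at chr1:4833396-4835089 and *DAO1* at chr1:4835724-4837771 are neighbours on the minus strand, with 634 bases between them. Reads were counted on exons without regard to strand, and only *GH3.9* shares exon bases with another gene, 264 bases (9.03%) with the lncRNA gene AT2G09955. Reads there were not counted if the annotation used for counting, which is not given, holds both genes.

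The bases just upstream of 4 genes are shown because these genes carry contrasts reported below: *GH3.1* and *GH3.2* were higher in DEX, whereas *GH3.6* was lower and its closest relative *GH3.5* was not called. Those of *GH3.9*, also called lower, are not shown, and 104 of the 250 lie in another gene. Each line gives the 250 bases before the annotated start of the gene, 5′ to 3′ on the strand of the gene, with the auxin response element TGTCTC or its reverse GAGACA in capitals. They lie at chr2:6453798-6454047 (minus strand) for *GH3.1*, chr4:17579368-17579617 (plus strand) for *GH3.2*, chr4:13653329-13653578 (plus strand) for *GH3.5* and chr5:22133689-22133938 (minus strand) for *GH3.6*, from RefSeq's TAIR10.1.
GH3.1: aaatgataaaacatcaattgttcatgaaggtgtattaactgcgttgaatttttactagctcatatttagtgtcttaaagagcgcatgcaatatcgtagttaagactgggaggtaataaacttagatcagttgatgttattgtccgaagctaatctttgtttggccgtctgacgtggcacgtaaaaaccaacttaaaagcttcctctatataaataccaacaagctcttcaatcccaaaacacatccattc
GH3.2: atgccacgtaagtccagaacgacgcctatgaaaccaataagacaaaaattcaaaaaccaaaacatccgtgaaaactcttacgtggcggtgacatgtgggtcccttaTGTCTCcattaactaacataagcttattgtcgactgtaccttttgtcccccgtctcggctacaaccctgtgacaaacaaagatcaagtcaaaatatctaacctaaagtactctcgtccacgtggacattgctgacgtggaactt
GH3.5: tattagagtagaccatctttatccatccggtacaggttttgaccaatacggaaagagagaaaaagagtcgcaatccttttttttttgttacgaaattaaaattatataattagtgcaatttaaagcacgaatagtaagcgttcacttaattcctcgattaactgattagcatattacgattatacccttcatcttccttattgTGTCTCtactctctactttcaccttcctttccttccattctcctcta
GH3.6: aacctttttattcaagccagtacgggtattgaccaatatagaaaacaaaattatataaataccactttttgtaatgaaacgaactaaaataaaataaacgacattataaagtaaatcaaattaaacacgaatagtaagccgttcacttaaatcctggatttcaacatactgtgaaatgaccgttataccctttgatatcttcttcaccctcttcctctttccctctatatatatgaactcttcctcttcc

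TGTCTC, on either strand, was found once each in these windows of *GH3.2*, *GH3.3* and *GH3.5*, with the last base of the motif 139, 111 and 42 bases upstream of the start of the gene. This makes 3 of 10 genes, against 10.9% of the 27443 protein-coding genes with such a window. Within 1000 bases it was found in *GH3.1*, *GH3.2*, *GH3.3*, *GH3.4*, *GH3.5* and *GH3.9*, which is 6 of 10 genes, against 39.6% of all. The variant TGTCGG (reverse CCGACA) was in 0 of 10 windows of 250 bases, against 4.16% of all, and within 1000 bases in *GH3.2* and *DAO1*, against 14.6%. The G-box CACGTG, its own reverse, was within 250 bases in *GH3.2* and *DAO2*, against 6.49% of all. Within 1000 bases it was in the same 2 of 10 genes, against 14.8% of all. In *GH3.2*, the only window with both TGTCTC and the G-box, the matches lay apart, with the last base of the G-box 22 bases upstream of the start. The genes with TGTCTC within 250 bases include 1 that rose, *GH3.2*, and 2 that were not called, *GH3.3* and *GH3.5*, and matches are given as a description of these windows only. The windows of *GH3.5* and *GH3.6* were 72.6% identical over 223 aligned bases, with a longest common run of 14 bases, cacgaatagtaagc.

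Transcripts of 2 genes were higher in DEX and those of 2 others lower, all within the GH3 family. *GH3.1* and *GH3.2* rose, *GH3.6* and *GH3.9* fell, and *GH3.3*, *GH3.5*, *GH3.17*, *DAO1* and *DAO2* did not pass. A gene was called when its adjusted p by edgeR's quasi-likelihood test was under 0.01, its change past 1.5-fold (the fold threshold, in either direction) and its mean normalised count over 50. By this rule 6.45% of all tested genes were called, 4.64% higher and 1.81% lower in DEX, against 4 of 9 of these genes. By the adjusted p alone 19.6% of all genes passed, 10.9% higher and 8.69% lower, and the same 4 of the 9 genes did so. Libraries of both treatments did not overlap for 31.3% of all genes and for these 4 genes. The median log2 fold change of the 9 genes was -0.01, as was that of all tested genes.

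**Figure D1:**
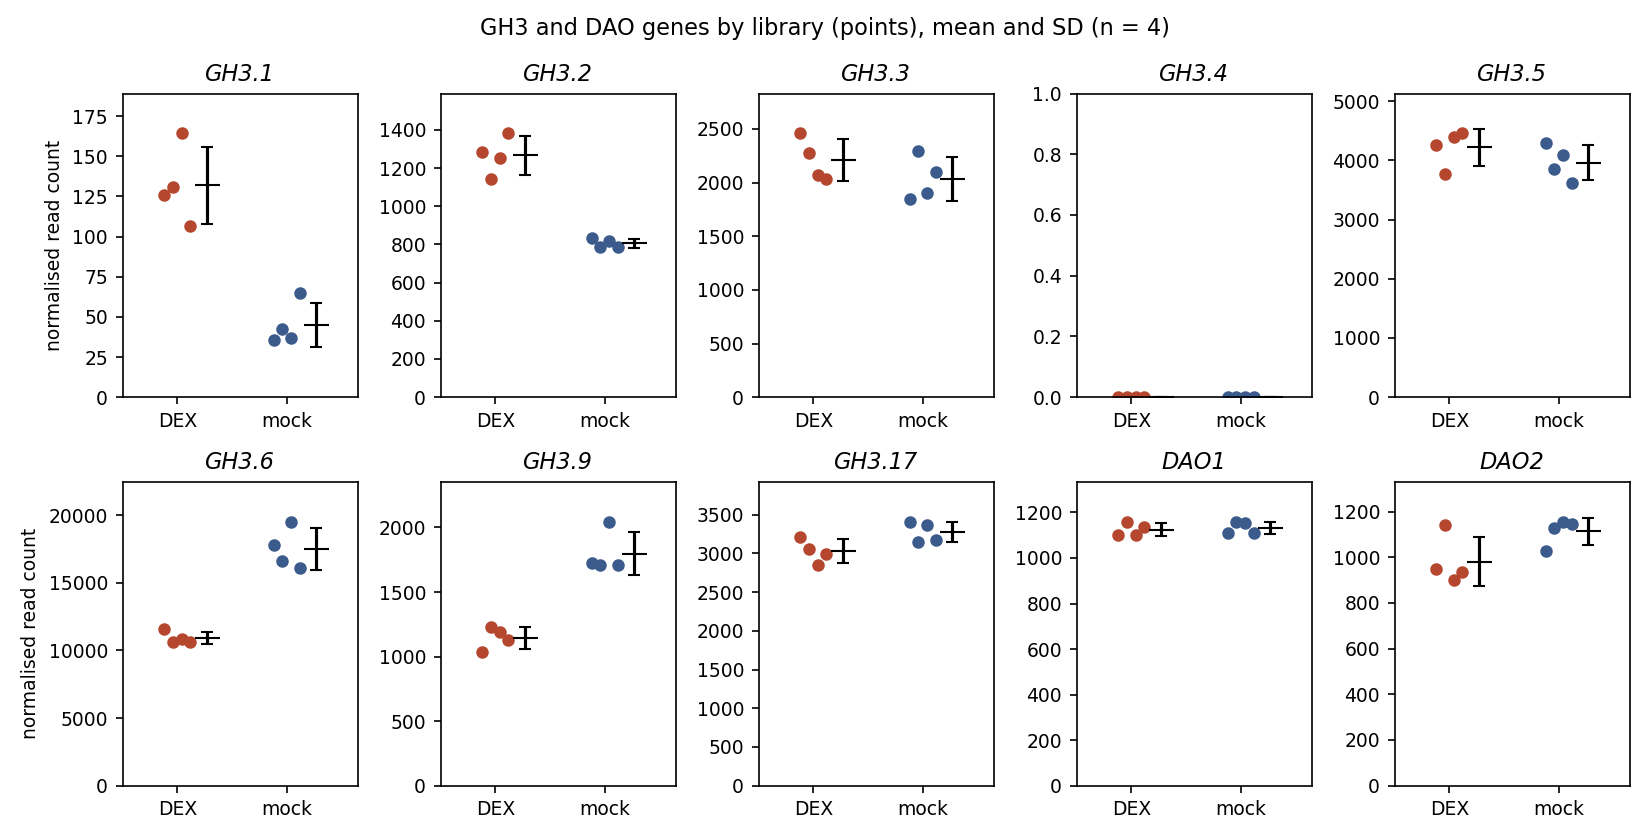
Normalised read counts of the 10 genes, with 1 panel per gene, 1 point per library (DEX left, mock right) and the mean and SD of 4 libraries beside the points. The DEX points lie above all mock points for *GH3.1* and *GH3.2* and below all mock points for *GH3.6* and *GH3.9*, the points of both treatments overlap for *GH3.3*, *GH3.5*, *GH3.17*, *DAO1* and *DAO2*, and *GH3.4* is at 0 throughout.

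*GH3.1* encodes an IAA-amido synthetase and had the lowest level among the 9 genes tested. Its normalised counts were 126.0, 131.0, 164 and 106 in DEX replicates 1 to 4, against 35.6, 42.5, 36.6 and 65.1 in mock replicates 1 to 4. The lowest DEX library was above the highest mock library. *GH3.1* averaged 132 ± 24.1 in DEX and 45.0 ± 13.8 in mock (SD, n = 4), a log2 fold change of 1.60 ± 0.20 (SE, 95% interval 1.17 to 2.03, adjusted p = 5.68e-05 by edgeR). These values rest on 83 to 146 raw reads per DEX library and 36 to 54 per mock library. The fold was 3.03, and among the 4 called genes only this one also passed a test against the fold threshold itself (adjusted p = 0.00122, edgeR's glmTreat).

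*GH3.2* encodes an IAA-amido synthetase also known as YDK1, whose overexpression gives short hypocotyls. It had 1285, 1140, 1255 and 1383 normalised counts in the DEX libraries, against 833, 785, 818 and 785 in the mock libraries. All DEX libraries lay above all mock libraries, and the mock libraries were close to each other. The means were 1266 ± 99.9 in DEX and 805 ± 24.4 in mock, and the log2 fold change was 0.65 ± 0.06 (SE, 95% interval 0.52 to 0.78, adjusted p = 4.55e-06 by edgeR). The interval reaches below a 1.5-fold change, so that a change past the threshold was not established by the test against it (adjusted p = 0.781). Of its 2023 windows of 50 exon bases, 23 (1.14%) occur elsewhere in the genome, where reads with more than 1 place were dropped.

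*GH3.6*, also known as DFL1, encodes an IAA-amido synthetase whose overexpression likewise shortens hypocotyls, and it had the highest level of the family. Its normalised counts were 11590, 10652, 10848 and 10643 in DEX libraries, against 17762, 16617, 19524 and 16059 in mock libraries. Every DEX library was below every mock library, and the DEX libraries varied less. *GH3.6* fell by 37.5%, with 10933 ± 448 in DEX and 17490 ± 1530 in mock, a log2 fold change of -0.68 ± 0.06 (SE, 95% interval -0.81 to -0.55, adjusted p = 3.25e-06 by edgeR).

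*GH3.9* is a more distant member of the same group, studied for its part in root growth. It had 1037, 1233, 1190 and 1126 normalised counts in DEX libraries, against 1722, 1706, 2046 and 1708 in mock libraries. The groups did not overlap, and mock replicate 3 stood above the other mock libraries. *GH3.9* fell by 36.2%, with 1147 ± 85.3 in DEX and 1795 ± 167 in mock, a log2 fold change of -0.65 ± 0.07 (SE, 95% interval -0.80 to -0.49, adjusted p = 2.46e-05 by edgeR).

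Both falls depend on the mock libraries for their size, not for their direction. Without the deepest libraries, mock replicates 1 and 3, an alternative chosen after seeing the data, the log2 fold change was -0.58 for *GH3.6* (adjusted p = 2.1e-05 by edgeR) and -0.57 for *GH3.9* (adjusted p = 0.00015), and neither was called. In the same fit the rise of *GH3.1* was smaller as well, at 1.30 (adjusted p = 0.002 by edgeR), against 1.60 with all libraries. *GH3.2* was at 0.69 there (adjusted p = 9.86e-05), and both genes were still called. Without mock replicate 3 alone, *GH3.9* was at -0.58 (adjusted p = 2.16e-05) and not called. Against the fold threshold, the adjusted p of glmTreat was 0.368 for *GH3.6* and 0.99 for *GH3.9*.

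Several markers of stomata and leaf fell in DEX, as did *GH3.6* and *GH3.9*. Of 12 markers of leaf, stomatal and shoot meristem tissue, 9 were tested, 0 were called higher and 6 were called lower in DEX, among them *TMM* (-1.68) and *SPCH* (-1.41), regulators of the stomatal lineage, with a median log2 fold change of -0.71. The 12 markers summed to 13955 to 14764 normalised counts in DEX and 12819 to 13562 in mock, a sum dominated by *STM*. This gene, listed here as a meristem gene, was higher in DEX by the adjusted p alone (log2 fold change 0.53, adjusted p = 2.09e-06 by edgeR). *STM* averaged 11198 ± 169 in DEX and 7780 ± 411 in mock (SD, n = 4), and which tissue its reads came from was not tested. The meristem gene *CLV3* was at -0.15 (adjusted p = 0.706). Without *STM*, the other 11 summed to 2719 to 3416 in DEX and 4484 to 6064 in mock, and no marker of the list was at 0 in all libraries. The part of this tissue in the changes of *GH3* genes was not tested. Of the 12 hypocotyl markers, 1 was called higher, *ATHB8* (0.78), a vascular HD-ZIP III gene, and 0 lower. By the adjusted p alone 2 were higher, *ATHB8* and the phloem gene *APL* (0.28, adjusted p = 0.00146 by edgeR), and 3 were lower, the vessel gene *VND6* (-0.45, adjusted p = 0.000336), the companion cell gene *SUC2* (-0.26, adjusted p = 0.00173) and the cambium gene *WOX4* (-0.21, adjusted p = 0.00731). The 12 markers summed to 47904 to 51851 normalised counts in DEX and 42964 to 45935 in mock, of which *ATHB8* gave 8514 ± 600 in DEX and 4968 ± 341 in mock (SD, n = 4).

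*GH3.3*, *GH3.5* and *GH3.17* encode IAA-amido synthetases as well, *GH3.17* one that favours glutamate. *GH3.3* had 2462, 2279, 2074 and 2031 normalised counts in DEX, against 1844, 2293, 1901 and 2103 in mock, with a log2 fold change of 0.12 (95% interval -0.05 to 0.30, adjusted p = 0.262 by edgeR). *GH3.5* had 4250, 3777, 4391 and 4459 in DEX, against 4290, 3857, 4082 and 3622 in mock, with a log2 fold change of 0.09 (95% interval -0.05 to 0.22, adjusted p = 0.308). For both genes the libraries of the 2 treatments were interspersed. *GH3.17* had 3217, 3056, 2847 and 2999 in DEX, against 3412, 3148, 3373 and 3178 in mock, with a log2 fold change of -0.11 (95% interval -0.21 to -0.02, adjusted p = 0.0751), and only DEX replicate 1 reached into the mock range. All 3 intervals lie within a 1.5-fold change in either direction.

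*GH3.4* had 0 counts in all 8 libraries and was not tested. A count of 0 allows up to 3 reads per library, which is at most 0.0625 CPM (counts scaled to library totals) in the shallowest library (counting error only). Of its 1647 windows of 50 exon bases, 23 (1.4%) occur elsewhere in the genome, and 0 of its exon bases are shared with another gene in the RefSeq annotation, which gives it no untranslated regions. Why it had no counts was not tested. Its nearest relative in protein sequence is *GH3.2*, with 88.8% identical residues, which rose.

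The DAO genes did not change past the thresholds. *DAO1*, the main IAA oxidase gene in seedlings, had 1102, 1160, 1103 and 1134 normalised counts in DEX libraries, against 1111, 1157, 1154 and 1109 in mock libraries. It averaged 1125 ± 27.7 in DEX and 1133 ± 26.3 in mock, the smallest spread relative to its mean among the 9 tested genes, and its log2 fold change of -0.01 had a 95% interval of -0.10 to 0.08 (adjusted p = 0.882 by edgeR). *DAO2*, its tandem neighbour with 75.6% identical residues, had 949, 1139, 901 and 937 in DEX, against 1027, 1130, 1156 and 1144 in mock. DEX replicate 2 lay within the mock range and the other 3 DEX libraries below it. The log2 fold change of *DAO2* was -0.18 (95% interval -0.34 to -0.02, adjusted p = 0.0779), and without DEX replicate 2 it was -0.26 (adjusted p = 0.00584), still within the fold threshold. Removing the DEX library that overlapped favours a smaller p, so that this value adds no support. With any other single library left out, the adjusted p of edgeR was 0.0537 to 0.201.

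**Figure D2:**
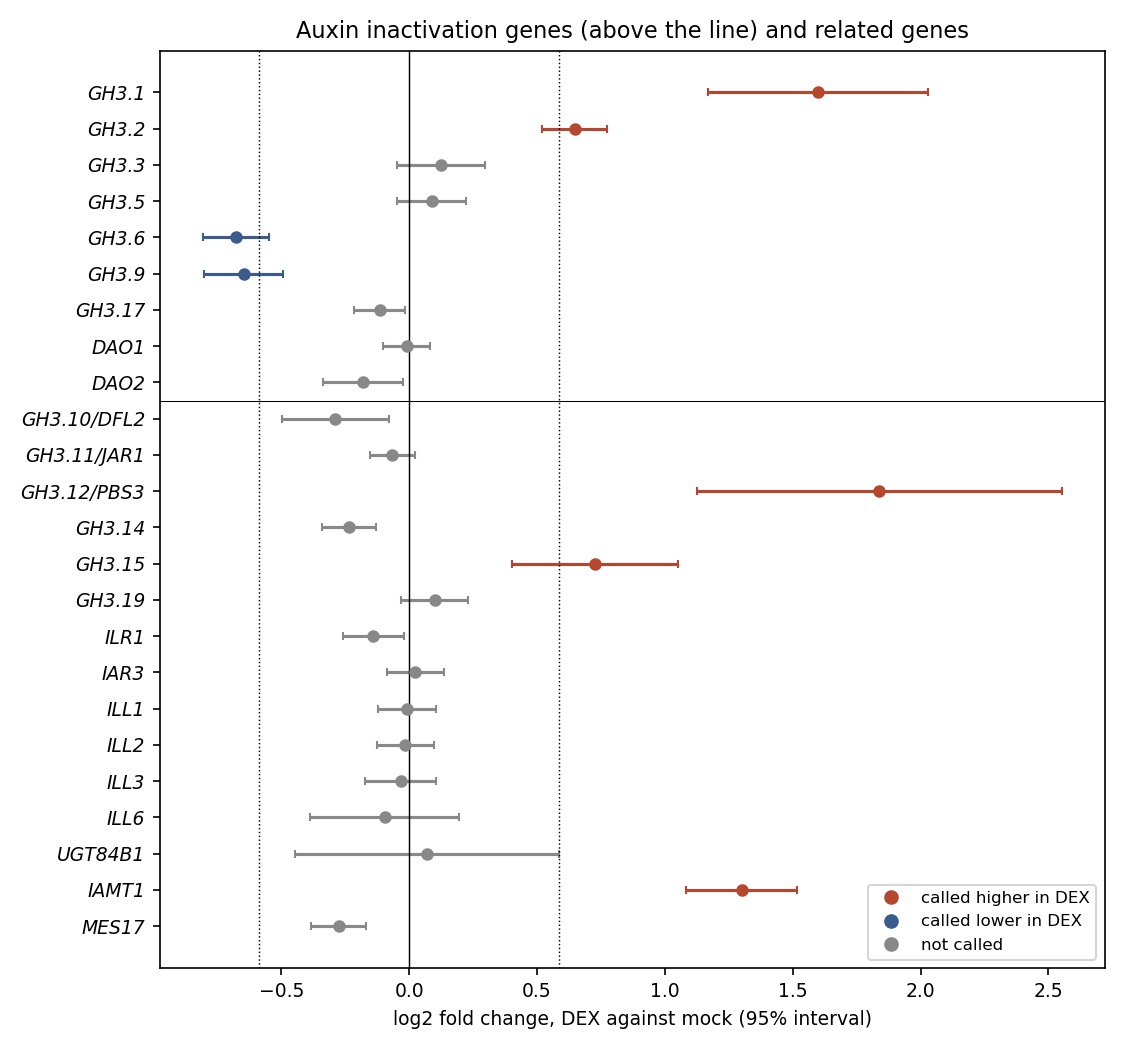
Log2 fold changes of DEX against mock with 95% intervals for the 9 tested auxin inactivation genes (above the line) and for other tested genes of the pathway, coloured by call, with dotted lines at the fold threshold of 1.5 in either direction. *GH3.1* (1.60) stands apart from *GH3.2* (0.65), and *GH3.6* (-0.68) and *GH3.9* (-0.65) are the genes called lower.

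Levels of different genes were compared as normalised counts per kb of exon. In DEX, *GH3.6* was highest at 4713 ± 193, followed by *GH3.5* at 1790 ± 131, *GH3.17* at 1107 ± 55.9, *GH3.3* at 1044 ± 93.8, *DAO2* at 748 ± 81.8, *DAO1* at 723 ± 17.8, *GH3.2* at 583 ± 46.0, *GH3.9* at 392 ± 29.2 and *GH3.1* at 58.9 ± 10.8 (SD, n = 4). In this order *GH3.17* and *GH3.3* did not differ beyond their spread, nor did *DAO2* and *DAO1*. In mock the levels were 7539 ± 659 for *GH3.6*, 1681 ± 122 for *GH3.5*, 1198 ± 48.9 for *GH3.17*, 961 ± 96.6 for *GH3.3*, 849 ± 45.2 for *DAO2*, 729 ± 16.9 for *DAO1*, 614 ± 57.1 for *GH3.9*, 371 ± 11.3 for *GH3.2* and 20.1 ± 6.14 for *GH3.1*. The order was the same in both treatments but for *GH3.2* and *GH3.9*, which exchanged places.

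Added up, the GH3 genes reached 10140, 9392, 9617 and 9604 normalised counts per kb in DEX libraries, against 12582, 11996, 13370 and 11587 in mock libraries. *GH3.6* made up 48.6 ± 0.638% of this sum in DEX and 60.8 ± 1.52% in mock. Without *GH3.6* the sum was 4976 ± 144 in DEX and 4845 ± 130 in mock, with overlapping libraries, so that the lower sum in DEX was that of *GH3.6*. *GH3.2* held 6.02 ± 0.444% in DEX and 3.002 ± 0.129% in mock. *GH3.5* held 18.5 ± 1.26% in DEX and 13.6 ± 0.655% in mock, and *GH3.1* 0.609 ± 0.115% in DEX and 0.164 ± 0.0598% in mock. The shares of *GH3.3* (10.8% in DEX, 7.81% in mock) and *GH3.17* (11.4% in DEX, 9.68% in mock) were higher in DEX too. *GH3.3*, *GH3.5* and *GH3.17* were not called, and a share of a smaller sum can rise without a rise of the gene. *GH3.9* held 4.06% in DEX and 4.95% in mock. The sums are a description of genes chosen with results known and were not tested.

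**Figure D3:**
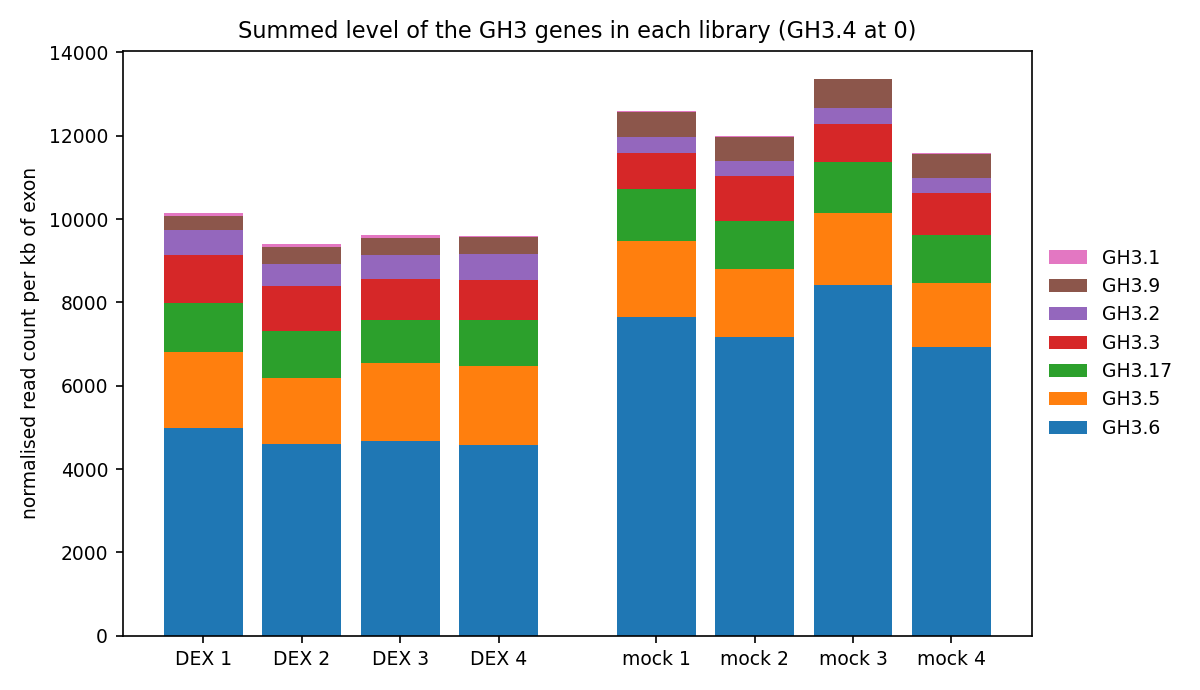
Summed level of the GH3 genes in each library as normalised read counts per kb of exon, stacked by gene, with the 4 DEX libraries left and the 4 mock libraries right. The sums lie between 9392 and 10140 in DEX and between 11587 and 13370 in mock, and the *GH3.6* segment at the base accounts for the gap.

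*GH3.5* and *GH3.6* are the closest relatives among the genes, with 90.4% identical residues, and were set against each other within each library, which cancels depth. The ratio of *GH3.5* to *GH3.6* raw counts was 0.367, 0.355, 0.405 and 0.419 in DEX libraries, against 0.242, 0.232, 0.209 and 0.226 in mock libraries. Every DEX library was above every mock library. The means of 0.386 ± 0.0306 in DEX and 0.227 ± 0.0137 in mock differed by 0.77 on the log2 scale (two-sided exact permutation test, p = 0.0286, the smallest that 4 against 4 libraries can give, and 0.0571 after Benjamini-Hochberg adjustment over 2 pairs). The ratio was thus higher in 4 of 4 DEX libraries, but the test misses 0.05 after adjustment. Over 2 pairs the adjusted p could be under 0.05 only if the other pair also had the smallest p. The ratio rests on the same counts as the fall of *GH3.6* and the unchanged call of *GH3.5*, so that it is no separate evidence.

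For *DAO1* over *DAO2* the ratios were 1.16, 1.02, 1.22 and 1.21 in DEX libraries, against 1.08, 1.02, 0.998 and 0.969 in mock libraries. The treatments overlapped through DEX replicate 2. The log2 difference was 0.18 (two-sided exact permutation test, p = 0.0857, also 0.0857 adjusted over 2 pairs). Without DEX replicate 2, the library that overlapped, it was 0.24 (exact permutation p = 0.0286). That p is the smallest the remaining libraries can give and follows from removing the overlap, so that it adds no support. *GH3.2* and *GH3.4*, the third pair of nearest relatives, gave no ratio because *GH3.4* was at 0.

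**Figure D4:**
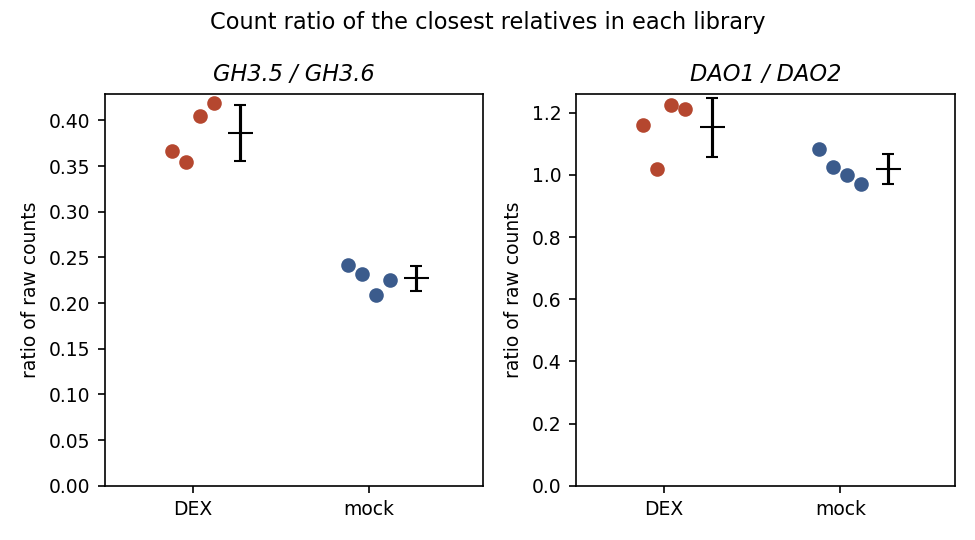
Ratio of raw read counts of the closest relatives in each library (points, DEX left, mock right), with mean and SD of 4 libraries. *GH3.5* over *GH3.6* is at 0.355 or above in DEX and at 0.242 or below in mock, whereas *DAO1* over *DAO2* overlaps between treatments.

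Among the other 11 GH3 genes, 6 were tested, 2 were called higher and 0 lower, with a median log2 fold change of 0.02. *PBS3* (*GH3.12*, AT5G13320), which acts on isochorismate in salicylic acid synthesis, averaged 152 ± 43.2 normalised counts in DEX and 45.0 ± 20.5 in mock (log2 fold change 1.84 ± 0.32 SE, adjusted p = 0.00175 by edgeR). *GH3.15* (AT5G13370), which acts on indole-3-butyric acid, a precursor of IAA, averaged 70.1 ± 5.81 in DEX and 42.2 ± 5.23 in mock (0.73 ± 0.15, adjusted p = 0.00258). *JAR1* (*GH3.11*), which makes the active jasmonate-isoleucine conjugate, had a log2 fold change of -0.06 (adjusted p = 0.243). *GH3.14* was lower by the adjusted p alone (-0.23, adjusted p = 0.00279).

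The genes listed as IAA-amino acid hydrolases gave no call, and what each enzyme acts on was not tested. Of 7 genes, 6 were tested by edgeR, 0 were called and 0 had an adjusted p under 0.01, 1 had an unadjusted p under 0.05 (*ILR1*, log2 fold change -0.14), and DESeq2 called 0. Their median log2 fold change was -0.02, from -0.14 for *ILR1* to 0.02 for *IAR3*.

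Of 4 genes for other forms of IAA, 3 were tested and 1 was called. *IAMT1* (AT5G55250), whose enzyme methylates IAA, rose to 670 ± 60.2 normalised counts in DEX, against 269 ± 38.6 in mock (log2 fold change 1.30 ± 0.10 SE, adjusted p = 1.15e-06 by edgeR). *MES17* (AT3G10870), an esterase that can undo this step, averaged 1379 ± 63.5 in DEX and 1670 ± 79.4 in mock (-0.28, adjusted p = 0.000962), which is within the fold threshold. The IAA glucosyltransferase gene *UGT84B1* was at 0.07 (adjusted p = 0.854). *UGT74D1* had 0 counts in all libraries, and 98.8% of its exon bases are shared with the lncRNA gene AT2G31751. Reads there were not counted if the annotation used for counting holds both genes, and why *UGT74D1* had no counts was not tested.

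For each called gene the 3 genes with the most similar profile over the 8 libraries were listed, by the root mean square difference of centred log2 values, as a description without a test. For *GH3.1* they were *MAN1* (AT1G02310, 0.081), AT4G16820 (0.116) and *OCT6* (AT1G16370, 0.139). Their log2 fold changes were 1.79, 2.16 and 1.64, against 1.60 for *GH3.1*. Counts were low for *MAN1* (means of 74.2 in DEX and 22.4 in mock) and AT4G16820 (22.3 and 5.24). At such counts the prior of 0.1 CPM narrows differences in log2 values. For *GH3.2* they were AT2G17280 (0.054), *IAA11* (AT4G28640, 0.058), an Aux/IAA gene of auxin signalling, and AT1G28760 (0.058). For *GH3.6* they were AT3G48420 (0.047), *PMT6* (AT4G36670, 0.055) and AT2G28605 (0.058). For *GH3.9* they were *PME3* (AT3G14310, 0.065), a pectin methylesterase gene, *ARR11* (AT1G67710, 0.066), a type-B response regulator of cytokinin signalling, and *ZPR1* (AT2G45450, 0.072), a small inhibitor of HD-ZIP III proteins. All these genes share the libraries with the genes they resemble.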

How the data were processed

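Polyadenylated RNA of 8 hypocotyl libraries was sequenced. The authors mapped reads with STAR 2.7.8a (version and the build TAIR10 from the submitters' processing notes), dropped those with more than 1 place and counted the rest per gene by summarizeOverlaps (union mode, ignoring strand). The annotation is not given in the sources used here. The deposited raw counts of 37573 genes were tested. A second deposited table holds signal values, raw counts divided by DESeq2 1.34.0 size factors, and was used only to read these factors. All 37573 loci matched RefSeq's TAIR10.1 annotation, which gave positions, exon lengths, protein identities and upstream bases.

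DEX was compared with mock in edgeR 4.0.16 (R 4.3.3, limma 3.58.1) by the quasi-likelihood test with robust estimates, TMM, filterByExpr and no replicate block, over all 21289 genes kept. Calls needed a Benjamini-Hochberg adjusted p under 0.01, a change over 1.5-fold (log2 scale, either direction) and a mean normalised count over 50. Standard errors were derived from the fold change and the F statistic. Likeness used log2 CPM with a prior of 0.1. The test was also run on simulated data, where all planted changes were larger than those of *GH3.2*, *GH3.6* and *GH3.9*. That run cannot show how the test performs near the fold threshold. Depth was 47976811 to 85953231 counts per library.

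Named genes were the 10 members, genes of other pathway lists that passed a test, and the 3 most similar genes of each called member. Other genes of those lists and of the marker lists named with values were chosen after their values were seen. Members and lists were chosen with earlier results of these data known. Alternatives were DESeq2 1.42.0, RLE size factors, library totals, other filters and thresholds, a test against the fold threshold (glmTreat), a replicate block, each library left out, and, added after seeing the data, mock replicates 2 and 4 only.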

Additional observations from a re-analysis of the deposited data

Results flagged for a closer look

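In 2 of 52 groups of 4 libraries searched, 1 library lay far from the other 3 by Dixon's criterion, where chance gives about 1 in 20 groups. For *GH3.9*, mock replicate 3 had 2046 normalised counts, against 1706 to 1722 in the other mock libraries, and without it the log2 fold change was -0.58. For the hydrolase gene *ILL3*, mock replicate 2 had 337 normalised counts, against 357 to 359 in the other mock libraries.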

How the results depend on the processing

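Over 18 alternatives, 155 of 162 log2 fold changes of the 9 tested genes kept their direction and side of the thresholds. Alternatives that changed only the thresholds, or tested against the fold threshold, reuse the main fold changes, so that there the direction could not change. The test against the fold threshold called 1 gene in all, 1 higher (*GH3.1*) and 0 lower. With mock replicates 2 and 4 only, 2 genes were called in all and 0 lower. The log2 difference of the *GH3.5* to *GH3.6* ratio was then 0.75 (exact permutation p = 0.0667), against 0.77 with all libraries. Every DEX library (0.355 or above) still lay above mock replicates 2 and 4 (0.232 or below). That p is the smallest these libraries can give, so that its rise cannot show a weaker difference. With single libraries left out, 3 to 4 genes were called, 2 to 2 higher and 1 to 2 lower, the 1 being without mock replicate 3. Log2 fold changes then ranged from 1.48 to 1.81 for *GH3.1*, 0.60 to 0.70 for *GH3.2*, -0.71 to -0.62 for *GH3.6* and -0.68 to -0.58 for *GH3.9*. *DAO1* changed sign, from -0.023 to 0.0018 (without DEX replicate 1, adjusted p = 0.983 by edgeR), around no change. The log2 difference between DEX and mock in the *GH3.5* to *GH3.6* ratio ranged from 0.72 to 0.81 (exact permutation p = 0.0286 throughout). For the *DAO1* to *DAO2* ratio this difference ranged from 0.15 to 0.24 (exact permutation p 0.0286 to 0.143).

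Replicate numbers did not pair the libraries (correlations of same-numbered libraries -0.0150 to 0.0767). With a replicate block, 4 genes were called, 2 higher and 2 lower, as with DESeq2. The cause of these shifts was not tested. Low counts limit *GH3.1*, and for *GH3.4* a level above 0 was not detectable at this depth.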
